A study of Mus musculus with 4 samples.

Results

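Kappa cells without Ms4a1 are bone marrow cells whose sequenced receptor transcripts include an immunoglobulin heavy chain and a kappa light chain, but in which no transcript of Ms4a1, the gene of the B-cell surface protein CD20, was counted. They were taken from the control B220lo library by 4 conditions: at least 1000 unique molecular identifiers (UMIs, each standing for 1 captured transcript), at least 500 genes, at most 10% mitochondrial UMIs, and IGH and IGK contigs with no IGL contig and a raw Ms4a1 count of 0. A contig is 1 assembled receptor transcript. These conditions gave 2965 cells of the 16329 kept in that library (18.2%, 95% interval 17.6 to 18.8) and of the 55216 kept in the whole series. They were 51.2% (49.9 to 52.5) of the 5786 cells with a heavy and a kappa chain. The other 2821, called kappa cells with Ms4a1, and 1799 cells with a heavy chain and no light chain, called heavy-chain-only cells, served for comparison, as did 1197 cells with a heavy and a lambda chain.

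The study sorted donor (CD45.2+) bone marrow cells of mice 10 weeks after transplantation and ran them on a droplet kit that reads the 5′ end of transcripts. It holds 4 libraries, 1 each of control, Mll3/4 deleted and Mll3/4SI Kit+ cells and of control B220lo cells. All cells described here come from the last of these, which the labels call control without giving the alleles it carries, the number of mice or whether mice were pooled. With 1 library per group there is no replicate and no test between groups. All intervals are 95% intervals for counting error only (exact Poisson for levels, Clopper-Pearson for shares, conditional binomial for ratios), and cells of 1 library share its preparation.

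During B-cell development in the bone marrow, a cell first joins V, D and J segments of the heavy-chain locus, and the new heavy chain is tested on the surface together with the surrogate light chain made from Vpreb1, Vpreb2 and Igll1. A burst of divisions of these large pre-B cells follows. Small, resting pre-B cells then turn the recombinase genes Rag1 and Rag2 on again and join a V to a J segment of the kappa locus, and lambda rearrangement mostly comes later. Il2ra, the CD25 chain of the interleukin-2 receptor, is a surface marker of pre-B cells, while Ms4a1 and the MHC class II genes are raised later, in immature and mature B cells. Cells that carry an unsuitable receptor can keep or resume Rag expression and replace their light chain, which is called receptor editing.

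The series held 163751605, 130424242, 166327773 and 85445426 UMIs in the control Kit+, deleted Kit+, SI Kit+ and control B220lo libraries. The same conditions found 4 of 11891, 10 of 14915 and 6 of 12081 kept cells in the 3 Kit+ libraries. Of the barcodes of the kappa cells without Ms4a1, 63, 52 and 40 also occurred in those libraries, where 0, 1 and 0 of their 3041 heavy-chain sequences were found. Of their 854 kappa chains, 21, 14 and 16 were found there. The members held 15065235 UMIs in all, with a median of 3068 per cell (quartiles 2376 and 5318), 1521 genes and 1.12% mitochondrial UMIs. Kappa cells with Ms4a1 had a median of 3390 UMIs, heavy-chain-only cells 3213 and lambda cells 2707. For shares of cells with a transcript, every cell was therefore thinned to 2000 UMIs, which left out 348 of the members, 187 kappa cells with Ms4a1, 266 heavy-chain-only cells and 220 lambda cells as too shallow.

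The filter on cells removed 32 further barcodes that met the receptor and Ms4a1 conditions, all with fewer than 1000 UMIs. Just outside that limit stood 10 barcodes with at least 900 UMIs, and just inside it 10 with at most 100 UMIs more than the limit. The limit on Ms4a1 was closer to the bulk of the cells, since 520 kappa cells had exactly 1 Ms4a1 UMI. A count of 0 also depended on depth: of 2634 kappa cells with Ms4a1 thinned to 2000 UMIs, 370 (14.0%) had none left. The share of kappa cells without Ms4a1 was 65.0% among cells of 1000 to under 2000 UMIs, 54.8% from 2000 to under 3000, 42.3% from 3000 to under 5000, 49.0% from 5000 to under 10000 and 58.5% at 10000 or more. It therefore did not fall steadily with depth. After thinning, 56.9% of kappa cells, 53.5% of lambda cells and 91.4% of heavy-chain-only cells had no Ms4a1, against 97.9% of NK or T-like cells (median 5083 UMIs before thinning) and 97.1% of plasmacytoid dendritic-like cells (5969.5 UMIs), which should lack the gene.

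The 3 marker genes given for these cells were checked first. Rag1 (ENSMUSG00000061311, mm10 chr2:101638282-101649501, minus strand) stood at 135 CPM (129.5 to 141; CPM are the UMIs of a gene summed over the cells of a group and scaled to a common total) in the members, 59.8 CPM (55.8 to 64.1) in kappa cells with Ms4a1 and 126 CPM (119.9 to 133) in heavy-chain-only cells. Il2ra (ENSMUSG00000026770, chr2:11642807-11693193, plus strand) stood at 128, 64.6 and 101 CPM in the same order. Both markers were thus at about the level of heavy-chain-only cells or above it, and above that of kappa cells with Ms4a1. At 2000 UMIs, 26.8% (25.1 to 28.5) of the members had a Rag1 UMI, against 10.3% of kappa cells with Ms4a1, 30.7% of heavy-chain-only cells, and 3.40% of NK or T-like and 2.81% of plasmacytoid dendritic-like cells, which set the background. Without thinning, the shares were 38.7%, 16.4%, 43.0%, 6.68% and 8.09%. A UMI of both Rag1 and Il2ra was found in 270 of 2390 thinned members without other types' transcripts (11.3%, 10.1 to 12.6), in 2.82% of kappa cells with Ms4a1 and in 12.4% of heavy-chain-only cells. In 807 of those members (33.8%), neither Rag1, Il2ra nor the proliferation gene Mki67 was counted.

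The third marker, Igkc (ENSMUSG00000076609, chr6:70726435-70726966, plus strand), encodes the kappa constant region. It is read from the same cDNA as the kappa contigs, and its unrearranged locus is also transcribed in pre-B cells, so its level is not independent of the choice of cells. Igkc stood at 1236 CPM in the members, 866 CPM in kappa cells with Ms4a1 and 71.3 CPM in heavy-chain-only cells, but 81.3% of the members' Igkc UMIs came from a cluster of 89 cells with plasma cell and granulocyte genes, described below. Without cells that carried transcripts of other cell types, the levels were 178 CPM (171 to 186), 381 CPM and 73.7 CPM. The log2 ratio of members to kappa cells with Ms4a1 was therefore 0.51 over all cells and turned to -1.09 (-1.17 to -1.02) without those cells. Against heavy-chain-only cells it was 4.10 over all and 1.26 (1.14 to 1.38) without them. At 2000 UMIs, 33.3% of the members had an Igkc UMI, against 53.2% of kappa cells with Ms4a1, 17.4% of heavy-chain-only cells, 5.03% of NK or T-like cells and 4.92% of plasmacytoid dendritic-like cells. Without thinning these shares were 45.6%, 71.4%, 31.0%, 12.8% and 15.3%. The NK or T-like and plasmacytoid dendritic-like cells were chosen for having no contig of any chain, kappa included. Their Igkc shares are therefore not independent of that choice either.

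The rule did not pick a single kind of cell. Of the 2965 members, 233 (7.86%) carried enough UMIs of markers of another cell type (at least 5 UMIs and 0.3% of the cell's total) to be counted as such: 92 for plasma cells, 77 for plasmacytoid dendritic cells, 57 for granulocytes or monocytes, 32 for NK or T cells and 1 for erythroid cells, with some cells in more than 1 class. The share was 5.46% in kappa cells with Ms4a1 and 3.78% in heavy-chain-only cells. The doublet caller Scrublet marked 0 cells at its own threshold and so did not work here, and no doublets were removed. A fixed doublet score of 0.25 was reached by 5.70% of members, 9.18% of kappa cells with Ms4a1 and 3.78% of heavy-chain-only cells. The 233 cells stay among the members, and gene levels below are given for the other 2732 members, for 2667 kappa cells with Ms4a1 and for 1731 heavy-chain-only cells chosen in the same way, unless all cells are named.

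The kappa contigs of the members rested on fewer UMIs than those of kappa cells with Ms4a1, with a median of 9 against 39. Their heavy-chain contigs had medians of 12 and 17 UMIs. Apart from cells with a kappa contig of 500 or more UMIs, 12.8% of the members' kappa contigs had a single UMI, 12.5% had 2 and 25.2% had 20 or more, whereas 69.7% of the contigs of kappa cells with Ms4a1 had 20 or more. The library held 110 cells with a kappa contig of 500 or more UMIs. All 110 had plasma cell transcripts, 89 carried an IGHA heavy chain, and together they held 79.7% of all kappa contig UMIs of the kept cells. Of these, 73 were members, with 91.2% of the members' kappa contig UMIs.

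**Figure D1:**
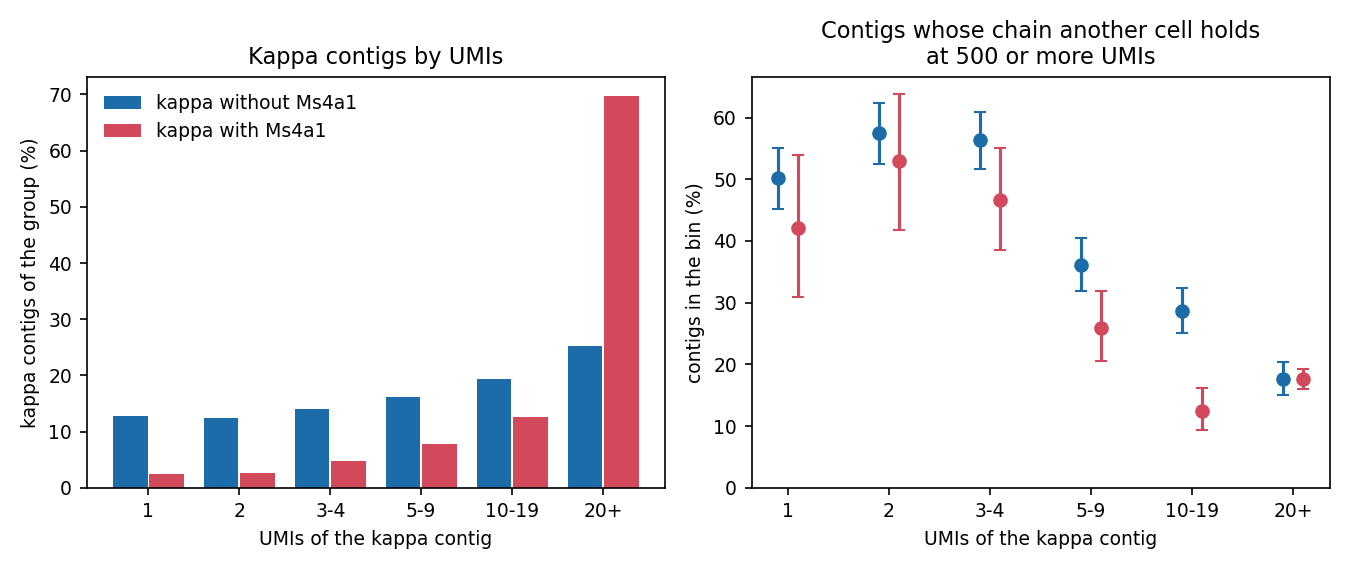
Left, share of kappa contigs (%) by their UMIs in kappa cells without (blue) and with Ms4a1 (red), cells with a contig of 500 or more UMIs left out; right, share of the contigs in each bin (%) whose kappa chain is also held at 500 or more UMIs by another cell, with Clopper-Pearson 95% intervals. Contigs of the members lie mostly below 20 UMIs, and in both groups the share with a matching chain is above 40% up to 4 UMIs and 17.6% at 20 or more. At 10 to 19 UMIs it is 28.6% in the members and 12.5% in kappa cells with Ms4a1.

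Many of the thinly covered kappa chains were the same chains that those 110 cells held. Of the members' kappa contigs with 1 UMI, 50.1% (45.2 to 55.1) had the V gene, J gene and CDR3 of a chain held at 500 or more UMIs by another cell. The share was 57.5% at 2 UMIs, 56.3% at 3 to 4, 36.1% at 5 to 9, 28.6% at 10 to 19 and 17.6% at 20 or more. Kappa cells with Ms4a1 had 42.1% at 1 UMI, 52.9% at 2, 46.7% at 3 to 4 and 25.9% at 5 to 9. They had 12.5% (9.42 to 16.1) at 10 to 19, below the members' 28.6% (25.1 to 32.4), and 17.6% at 20 or more. Heavy-chain contigs of the members matched such a cell in 43.8% at 1 UMI, 26.9% at 2, 1.66% at 5 to 9 and 0.352% at 20 or more. In NK or T-like and plasmacytoid dendritic-like cells without a heavy chain, 89 of 2253 (3.95%) had a kappa contig, with a median of 5 UMIs, and 69 of those 89 contigs (77.5%) matched. Whether a thinly covered kappa contig came from the cell itself or from free RNA was not tested, and results on kappa chains are given by UMIs for that reason.

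The J segments give the 3′ end of each kappa CDR3. Their germline sequences, read from the mm10 gene annotation (GENCODE M21) on the plus strand of chromosome 6, are shown because every kappa chain below ends in one of them. Capitals mark the bases that fall inside the CDR3.
Igkj1, chr6:70722562-70722599: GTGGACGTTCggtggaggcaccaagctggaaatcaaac
Igkj2, chr6:70722916-70722954: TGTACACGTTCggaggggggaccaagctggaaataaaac
Igkj4, chr6:70723548-70723585: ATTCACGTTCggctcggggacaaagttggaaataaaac
Igkj5, chr6:70723886-70723923: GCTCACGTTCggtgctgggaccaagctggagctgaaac
The order along the chromosome is Igkj1 first, nearest to the V genes, and Igkj5 last. A kappa locus that has used Igkj5 has no further J segment downstream for another round of joining, which is why J use is followed in studies of receptor editing.

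Over all 3297 kappa contigs of the members, 23.6% (22.2 to 25.1) used IGKJ1, 30.8% IGKJ2, 18.1% IGKJ4 and 27.5% IGKJ5. Kappa cells with Ms4a1 used them in 25.8%, 27.6%, 16.5% and 30.2% of 3188 contigs. Among contigs of 10 or more UMIs, the members' shares were 27.8% (25.4 to 30.2), 30.5%, 15.7% and 26.0% (23.7 to 28.4) of 1375, against 27.4%, 27.4%, 15.8% and 29.4% (27.6 to 31.2) of 2497. The IGKJ1 shares of well-covered chains thus lay within each other's counting intervals. The IGKJ5 shares did not, although their intervals overlapped, and this difference was not tested. Contigs of 2 or fewer UMIs used IGKJ1 in 19.2% of 770. Well-covered chains of members with a Rag1 UMI used IGKJ1 in 26.3% (22.1 to 30.7) and IGKJ5 in 27.7%, and those without one in 28.5% (25.6 to 31.4) and 25.2%, so that no difference with Rag1 was detectable at this depth.

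V use differed more with coverage than J use did. The most used V genes over all contigs were IGKV1-135 with 6.13%, IGKV14-126 with 5.31%, IGKV1-110 with 5.19%, IGKV2-137 with 5.16% and IGKV14-100 with 5.07%. At 10 or more UMIs their shares were 7.85%, 2.25%, 3.93%, 2.84% and 1.89%, and in kappa cells with Ms4a1 at that coverage 5.97%, 0.561%, 2.60%, 2.68% and 0.481%. Among the members' contigs of 2 or fewer UMIs the shares were 4.16%, 8.31%, 5.71%, 8.05% and 5.58%, so that IGKV14-126, IGKV2-137 and IGKV14-100 each had over 2 times the share there that they had at 10 or more. The median distance from the V gene to Igkj1 was 1455 kb for well-covered IGKJ5 chains of the members and 1147 kb for those of kappa cells with Ms4a1, and 41.7% against 31.5% lay over 2000 kb away. No intervals were computed for these distances. A single recurrent chain, IGKV14-126 with IGKJ5, has its V gene over 2000 kb away. With cells holding a contig of 500 or more UMIs set aside, it made up 1.60% of the members' contigs of 10 or more UMIs. In kappa cells with Ms4a1 it made up 0.231%. How much of the difference in distance this chain supplied was not tested. For IGKJ1 chains the medians were 1860 kb and 1783 kb.

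Recurrent chains are shown next, as examples of chains found in many members and also held at 500 or more UMIs. Each is a CDR3 from its first cysteine codon to the conserved phenylalanine codon, 5′ to 3′, with the bases that match the J segment in capitals. A base that either V or J could supply is counted with J.
IGKV14-126 with IGKJ5: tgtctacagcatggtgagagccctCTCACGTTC
IGKV14-100 with IGKJ2: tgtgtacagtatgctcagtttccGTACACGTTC
IGKV1-110 with IGKJ4: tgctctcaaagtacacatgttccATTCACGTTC
IGKV2-137 with IGKJ4: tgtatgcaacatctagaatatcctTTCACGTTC
IGKV10-94 with IGKJ2: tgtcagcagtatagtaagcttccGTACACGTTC
In these 5, every base is accounted for by the germline V and J, with 0 extra bases at the junction. The first was found in 156 members, that is 4.85% of their kappa contigs once cells with a contig of 500 or more UMIs were set aside. Its share was 8.0% among contigs of 2 or fewer UMIs, 1.60% at 10 or more, and 0.231% at 10 or more in kappa cells with Ms4a1. The other 4 chains were found in 142, 116, 77 and 56 members. The 156 members with the first chain had 162 different heavy chains among them, so they were not a clone, and between 1 and 4 cells held each of these 5 chains at 500 or more UMIs.

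The members had 854 distinct kappa chains in 3297 contigs, and the 10 most common made up 24.2%. That share was 38.1% for contigs of 2 or fewer UMIs and 12.2% for contigs of 10 or more, against 9.97% for the latter in kappa cells with Ms4a1. A second kappa contig was found in 332 members (11.2%) and 367 kappa cells with Ms4a1 (13.0%), but both contigs had 10 or more UMIs in 2.93% (2.36 to 3.61) of members and 9.04% (8.01 to 10.2) of kappa cells with Ms4a1.

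The members' heavy chains were mostly of the unswitched class. IGHM was the constant region of 90.1% of their 3163 heavy-chain contigs, IGHA of 5.44%, IGHD of 0.696%, and none was listed for 3.13%. IGHG1 was found in 2 contigs, IGHG2B in 16, IGHG2C in 1 and IGHG3 in 0, with an interval that reaches 0.117%. Without other types' cells IGHM made up 93.3% and IGHA 2.43%, and these 71 IGHA contigs had a median of 3 UMIs, against 12 for IGHM. The J genes IGHJ1 to IGHJ4 made up 21.8%, 37.0%, 25.5% and 15.7%. The leading V genes were IGHV1-26 with 4.58%, IGHV9-3 with 4.08% and IGHV8-8 with 4.02%, against 5.10%, 3.82% and 3.95% in kappa cells with Ms4a1. The median heavy CDR3 was 42 bases long (quartiles 36 and 48) in members, kappa cells with Ms4a1 and heavy-chain-only cells alike.

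Heavy-chain clones, defined by the same V gene, J gene and CDR3 bases, were rare among the members. Over all members and contigs, 141 of 2965 (4.76%, 4.02 to 5.58) shared a heavy chain with a kappa cell with Ms4a1. Limited to IGHM and IGHD chains and without other types' cells, 32 of 2588 (1.24%, 0.847 to 1.74) did. Another 20 (0.773%) shared one with a heavy-chain-only cell and 11 (0.425%) with a lambda cell. Within the members, 52 cells formed 26 clones, each of 2 cells. Both cells had the same kappa chain in 3 clones and different kappa chains in 23. A shared kappa chain in 3 of 26 pairs (11.5%, 2.45 to 30.2) stood beside 0.936% over all pairs of members. In only 3 of the 26 pairs did both cells have kappa contigs of 10 or more UMIs, and 1 of those 3 shared its kappa chain.

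The other 2 of those 3 well-covered pairs are shown because 1 heavy chain stood beside 2 different kappa chains. Lower case gives the heavy CDR3, and capitals in the kappa CDR3 again mark the bases that match the J segment.
heavy IGHV1-69 with IGHJ2: tgtgcaagaggactcggctactgg
kappa IGKV4-50 with IGKJ5, 22 UMIs: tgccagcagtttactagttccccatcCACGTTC
kappa IGKV10-95 with IGKJ1, 17 UMIs: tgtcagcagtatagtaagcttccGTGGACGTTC
heavy IGHV1-81 with IGHJ2: tgtgcccgaactgggacgggggactactgg
kappa IGKV4-79 with IGKJ5, 10 UMIs: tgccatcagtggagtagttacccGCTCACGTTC
kappa IGKV1-133 with IGKJ2, 70 UMIs: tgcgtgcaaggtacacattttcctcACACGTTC
All 4 cells fell into cluster 0, described below. The heavy CDR3s were 24 and 30 bases long, shorter than the median of 42, and whether the cells of a pair descend from 1 pre-B cell was not tested.

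Gene levels of the members were next set beside those of kappa cells with Ms4a1. This is the contrast that the rule used, so the values describe the chosen cells and support nothing further. A gene was counted as different when its log2 ratio, with 1 CPM added to both levels, reached 1 either way, among genes with at least 100 UMIs in the higher group. Over all cells, 415 of 9777 genes (4.24%) were past that limit, 106 (1.08%) higher in the members and 309 (3.16%) lower. Without other types' cells, 104 of 9370 (1.11%) were higher and 382 (4.08%) lower, and the median log2 ratio over all genes was 0.04.

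Of the recombination genes, 3 of the 9 measured were over 2-fold higher in the members, none was lower, and the list's median log2 ratio was 0.27. The recombinase genes Rag1 and Rag2 had ratios of 1.23 (1.11 to 1.35) and 1.38 (1.20 to 1.56), with Rag2 at 76.8 CPM against 28.8 CPM. The third was Xrcc6, which encodes the Ku70 subunit of the end-joining machinery, at 339 CPM against 148 CPM. Its partner Xrcc5, for Ku80, was at 18.3 CPM against 20.9 CPM. Dntt, the polymerase that adds untemplated bases, was at 59.4 CPM against 49.1 CPM, and the ligase gene Lig4 at 57.3 CPM against 39.2 CPM.

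The surrogate light chain genes Vpreb1 and Igll1 were both over 2-fold higher, at 305 CPM against 146 CPM and 453 CPM against 208 CPM. Vpreb2 stood at 31.9 CPM against 16.6 CPM, while the related gene Vpreb3 stood at 2596 CPM against 2288 CPM. Over all cells Vpreb1 missed the limit with a ratio of 0.92. Members differed among themselves in these genes. Of the clusters described below, cluster 6, with 134 cells, had Igll1 at 1609 CPM and Vpreb1 at 1075 CPM. Cluster 0, the largest with 1251 cells, had 89.2 and 74.3 CPM, below the levels of kappa cells with Ms4a1. Of 9 early receptors measured, 2 were higher: Il7r, the interleukin-7 receptor that drives pre-B growth, at 424 CPM against 179 CPM, and Il2ra at 149 CPM against 70.7 CPM. The ratio of Il2ra was 1.06 (0.95 to 1.18), and 0.97 over all cells. Cxcr4, the receptor that keeps precursors in the marrow niche, stood at 122 CPM against 68.7 CPM. The median of this list was 0.74.

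Late genes were at much lower levels in the members. Of 16 late surface receptors, 11 were over 2-fold lower and none higher, with a median of -1.73. Fcmr, the IgM Fc receptor, stood at 68.3 CPM against 477 CPM, Tnfrsf13c, the BAFF receptor that carries survival signals in mature B cells, at 99.3 CPM against 430 CPM, Ltb at 26.9 CPM against 243 CPM, and Cd83 at 2.90 CPM against 62.8 CPM. Cd40 stood at 26.8 CPM against 131 CPM. Cd38 did not share this direction, with a ratio of 0.28. Of 10 MHC class II genes, 8 were lower, with a median of -2.00. Cd74, the invariant chain, stood at 828 CPM against 7356 CPM (ratio -3.15, -3.18 to -3.12), H2-Aa at 193 CPM against 882 CPM, and H2-DMb2 at 15.2 CPM against 199 CPM.

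**Figure D2:**
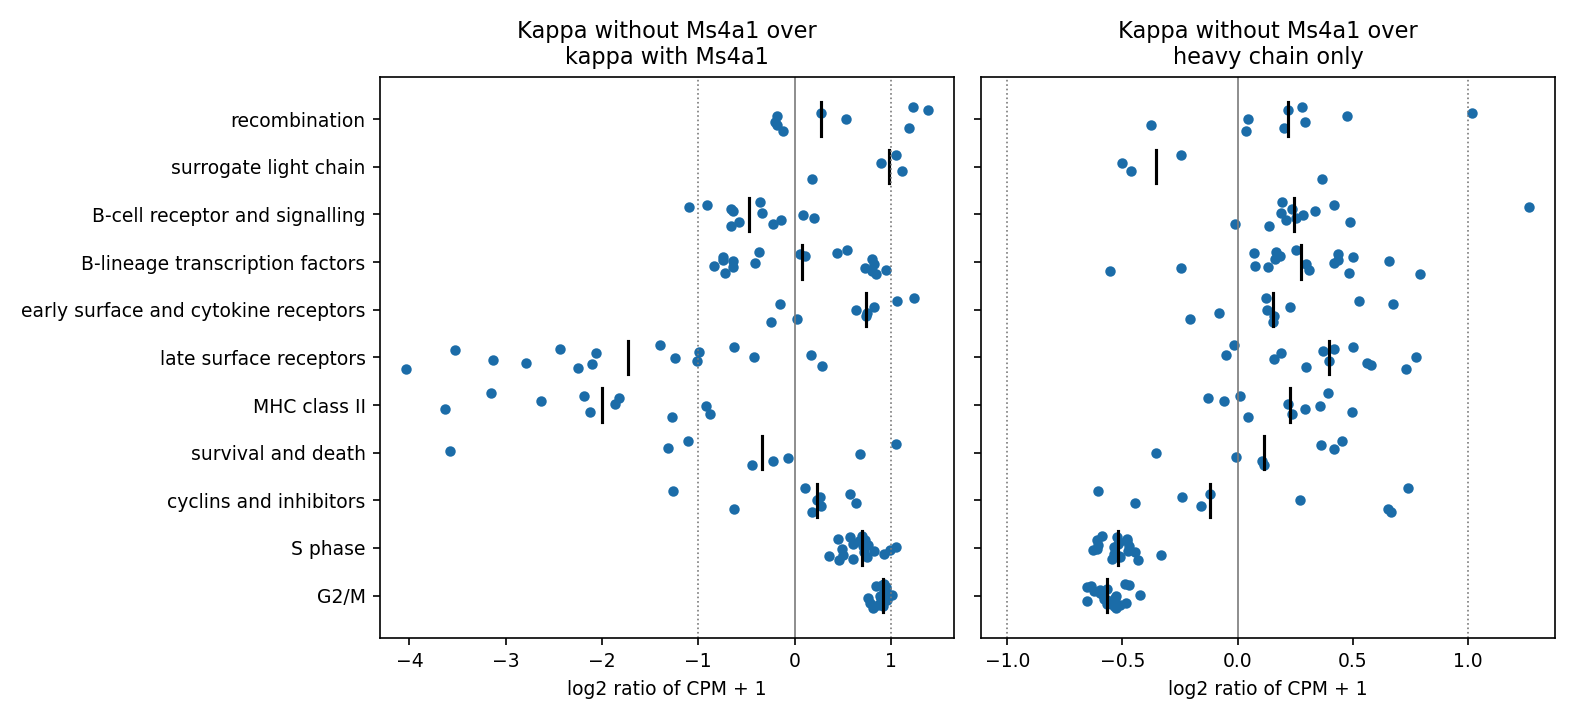
Log2 ratio of CPM + 1 for each measured gene of 11 lists, other types' cells left out, in the members over kappa cells with Ms4a1 (left) and over heavy-chain-only cells (right, on a narrower axis). Points are genes, black bars list medians and dotted lines the 2-fold limits. Late receptors and MHC class II genes lie far to the left in the first panel, with medians of -1.73 and -2.00. In the second, where some heavy-chain-only cells had Ms4a1, their medians are 0.40 and 0.23.

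The receptor signalling genes lay between these extremes, with a median of -0.47 over 12 genes. Cd79a and Cd79b, the signalling chains of the receptor, stood at 2406 CPM against 3793 CPM and 1585 CPM against 2469 CPM. Ighm stood at 955 CPM against 1229 CPM, while Blnk, the adaptor of pre-B receptor signalling, stood at 577 CPM against 500.5 CPM. None of 18 transcription factors was past 2-fold. Ratios were positive for Sox4 (0.95), Erg (0.84), Bach2 (0.83), Irf4 (0.81), Myc (0.81), Lef1 (0.73), Ebf1 (0.55), Tcf3 (0.44), Ikzf1 (0.10) and Foxo1 (0.05). They were negative for Bcl6 (-0.84), Irf8 (-0.74), Ikzf3 (-0.74), Klf2 (-0.72), Mef2c (-0.64), Spib (-0.64), Spi1 (-0.42) and Pax5 (-0.37).

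Among 8 survival genes measured, Bcl2l1, for the anti-death protein Bcl-xL that pre-B cells rely on, was higher with a ratio of 1.05 (0.90 to 1.20), at 95.7 CPM against 45.7 CPM. Mcl1, Bcl2 and Bcl2a1b were lower, with ratios of -1.31, -1.10 and -3.57. For Bcl2 the ratio was -0.65 over all cells, and so short of the limit. Ccnd2 stood at 96.2 CPM against 232 CPM and Ccnd3, the cyclin that pre-B cells divide with, at 448 CPM against 299 CPM. All 20 G2/M genes had positive ratios, with a median of 0.92 and 1 past 2-fold, and the median of 20 S-phase genes was 0.71. Outside the lists, the highest ratios belonged to F5 (1.48), P2rx3 (1.45), Rbm24 (1.44), Amigo1 (1.43) and Prg3 (1.42). The lowest, apart from Ms4a1 itself, belonged to Il4i1 (-4.63), Shisa8 (-4.38), Cfp (-4.05) and Fcrl5 (-3.94).

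On a finer scale of Ms4a1 within kappa cells, levels at 1 UMI lay between those at 0 and at 2 UMIs for most of these genes. In cells of 0, 1, 2, 3 to 5 and 6 or more Ms4a1 UMIs, Rag2 stood at 76.8, 55.7, 36.6, 25.7 and 18.8 CPM. Il7r stood at 424, 309, 228, 183 and 118 CPM. Cd74 stood at 828, 1929, 4909, 6592 and 10296 CPM. Cells with 1 UMI, just outside the rule, were thus nearer to the members than to cells with 6 or more UMIs in all 3 genes. The order was not steady in every gene: Igll1 stood at 453 CPM with 0 and 510 CPM with 1, Vpreb1 at 305 and 323 CPM, and Rag1 at 71.3 CPM with 2 and 75.4 CPM with 3 to 5. Mki67 was at 269.9 CPM with 3 to 5 and 289.8 CPM with 6 or more, and Cd79a at 3702 CPM with 2 and 3589 CPM with 3 to 5. Median depths of these 5 groups lay between 2942 and 3774.5 UMIs, and the last group was the deepest.

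**Figure D3:**
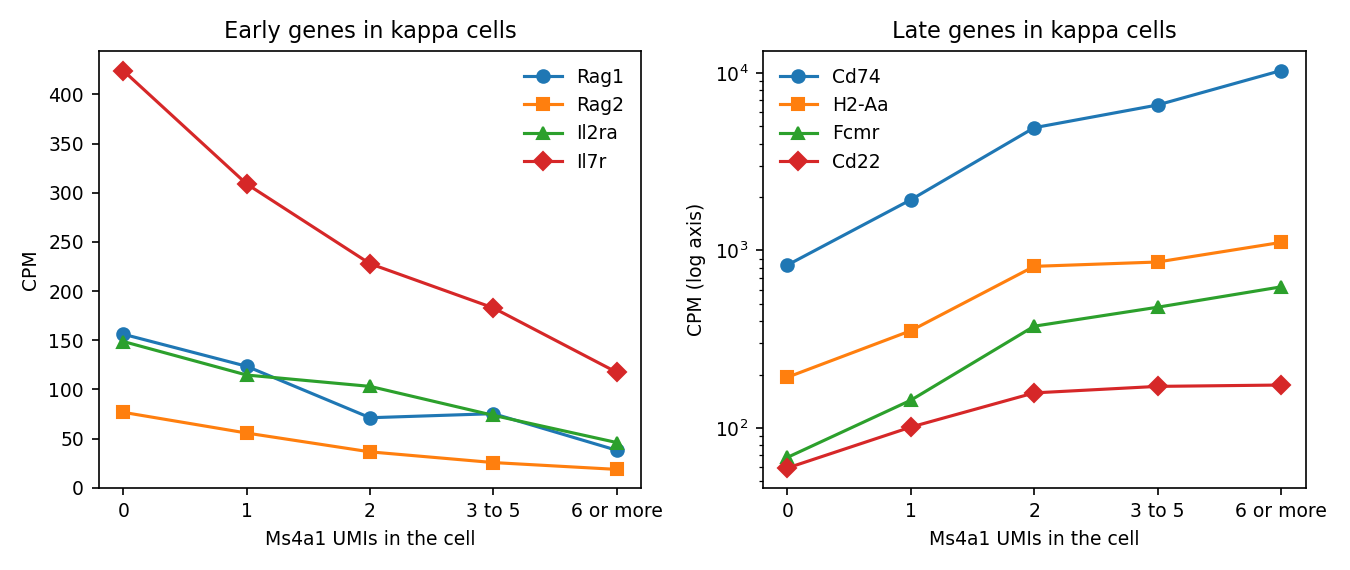
CPM of early genes (left, linear axis) and late genes (right, log axis) in kappa cells by their Ms4a1 UMIs, other types' cells left out; each point sums all cells of a bin, and bins hold 2732, 473, 281, 728 and 1185 cells. The 4 early genes plotted, Rag1, Rag2, Il2ra and Il7r, are highest in cells with 0 UMIs, where Rag1 is at 156 CPM, and lowest at 6 or more, where it is at 38.2 CPM, while Cd74 goes from 828 to 10296 CPM.

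Against heavy-chain-only cells, fewer genes passed the limit than against kappa cells with Ms4a1. Heavy-chain-only cells were not chosen on Ms4a1, but 1551 of the 1799 also had none. Over all cells, 212 of 9458 genes (2.24%) were past 2-fold, 204 (2.16%) higher in the members and 8 (0.0846%) lower. Without other types' cells, 87 of 9074 (0.959%) were higher and 1 (0.011%) lower, and that 1 was Ms4a1. The balance turned for members with a well-covered kappa chain. With kappa cells limited to a kappa contig of 10 or more UMIs and other types' cells left out, 97 of 8211 genes (1.18%) were higher than in heavy-chain-only cells and 160 (1.95%) lower. The same members had 88 of 8276 genes (1.06%) higher and 366 (4.42%) lower than kappa cells with Ms4a1 at that coverage. With other types' cells kept, 187 of 8716 genes (2.15%) were higher and 257 (2.95%) lower than in heavy-chain-only cells. Over all cells the leading genes included plasma cell genes and genes whose UMIs came largely from 1 cell. Jchain, the joining chain of secreted IgA and IgM, stood at 3849 CPM against 46.6 CPM, and 93.1% of its UMIs came from the same cluster of 89 cells, and without other types' cells at 72.3 CPM against 46.7 CPM. For Car1, 96.5% of the members' UMIs were in 1 cell, and for Cpa3, also among the leading genes, 23.8%. On the lower side, Hbb-bt had 86.9% of the heavy-chain-only UMIs in 1 cell.

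After those cells were left out, the genes past 2-fold from the lists were Igkc (1.26) and Dntt, at 59.4 CPM against 28.8 CPM (ratio 1.02, 0.83 to 1.22; 0.80 over all cells). Over all cells Kit and Ccnd1 had also passed, with 1.11 and 1.06, and without other types' cells Ccnd1 had 0.74 and Kit 0.63 on too few UMIs. Dtx1, a Notch pathway regulator, had a ratio of 1.19 and Alcam 1.09. Mcpt8 led with 3.06, but 96.5% of its UMIs were in 1 cell. Ly6a, Ly6c2, Fcer1g and Ncf1, with ratios of 1.38, 1.15, 1.07 and 1.04, are known from myeloid or dendritic cells as well, and whether cells of such types below the marker limit supply them was not tested.

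Most list genes lay close to the heavy-chain-only level. Rag1 had a ratio of 0.28 (0.18 to 0.38), Rag2 of 0.22 (0.08 to 0.36), Il2ra of 0.53 (0.42 to 0.64) and Il7r of 0.12 (0.06 to 0.18). The 10 MHC class II genes had a median of 0.23, with Cd74 at 828 CPM against 630.5 CPM and H2-Eb1 at 89.8 CPM against 93.6 CPM. Late receptors had a median of 0.40, with Fcmr at 68.3 CPM against 45.9 CPM and S1pr1, the receptor for exit to the blood, at 30.8 CPM against 17.6 CPM. Spib had a ratio of 0.66, Btg1 of 0.65, Btg2 of 0.66 and Erg of 0.79. On the other side stood Igll1 (-0.46), Vpreb2 (-0.50), Myc (-0.55) and Ccnd2 (-0.61). None of these passed 2-fold, and the median over all genes was 0.04. The heavy-chain-only cells here include some with Ms4a1, whereas the members do not. In heavy-chain-only cells without Ms4a1, Cd74 stood at 531 CPM, H2-Aa at 181 CPM and Fcmr at 37.8 CPM. The members had 828, 193 and 68.3 CPM.

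Proliferation genes were lower in the members than in heavy-chain-only cells as a group. The summed log2 ratio of the 20 G2/M genes was -0.67 (-0.68 to -0.65) over all cells and -0.55 without other types' cells, and no single gene was past 2-fold. Mki67 stood at 655 CPM in the members, 919 CPM in heavy-chain-only cells and 343 CPM in kappa cells with Ms4a1. At 2000 UMIs, 25.8% (24.2 to 27.6) of members had 3 or more G2/M UMIs, against 44.3% (41.8 to 46.8) of heavy-chain-only cells, 13.9% of kappa cells with Ms4a1 and 22.8% of lambda cells. The same share was 14.3% in NK or T-like cells and 16.5% in plasmacytoid dendritic-like cells.

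The members were also divided by the UMIs of their best kappa contig, a measure the rule did not use except that it had to be above 0. Among kappa cells of 2 or fewer kappa UMIs, 85.1% (612 of 719) had no Ms4a1, and the share was 72.6% at 3 to 9 UMIs, 64.8% at 10 to 19, 28.5% at 20 to 99 and 5% (6 of 120) at 100 or more. Median depth over these bins went from 2626 to 4124.5 UMIs. The thinnest bin's 85.1%, without other types' cells and at a median of 2626 UMIs, stood beside 86.2% of all heavy-chain-only cells, at 3213 UMIs.

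The 612 members with 2 or fewer kappa UMIs had the Igkc level of heavy-chain-only cells without Ms4a1, but differed from them in other genes. Igkc stood at 66.8 CPM (57.8 to 76.7) in them, 93.8 CPM in the 827 members with 3 to 9 kappa UMIs and 293 CPM in the 1293 with 10 or more, against 70.5 CPM in 1494 heavy-chain-only cells without Ms4a1. Igll1 stood at 720, 492 and 287 CPM, against 631 CPM. Myc stood at 156, 102 and 38.9 CPM, against 130 CPM. Ebf1 stood at 3705 CPM (3636 to 3775) in the thinnest group against 2574 CPM (2541 to 2607), and Rag1 and Il2ra were also above the heavy-chain-only level there. The members with the thinnest kappa chains thus had no more Igkc than cells without any kappa contig, within counting error. In clusters 2 and 5 of the members, described below, 32.9% and 51.5% of cells had 2 or fewer kappa UMIs. Their medians of ribosomal-protein UMIs were only 3.66% and 2.96%. Ebf1 was at 10533 and 8351 CPM in them, Rag1 at 408 and 70.1 CPM and Il2ra at 418 and 59.8 CPM. The part of RNA quality in the differences of the thinnest group was not tested.

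The 1293 members with 10 or more kappa UMIs stood between heavy-chain-only cells and kappa cells with Ms4a1 and 10 or more kappa UMIs in some genes and outside both in others. Spib, a B-lineage transcription factor, stood at 283 CPM in heavy-chain-only cells, 330, 377 and 578 CPM in the 3 groups of members, and 743 CPM in kappa cells with Ms4a1. Rag1 was highest in the members with fewer than 10, at 132 CPM, then 179, 199.97 and 115 CPM, then 55.0 CPM. Il2ra was above both ends in all 3 groups of members, at 102 CPM, then 140, 148 and 154 CPM, then 63.5 CPM. Sox4 stood at 336 CPM in the members with 10 or more, against 252 and 156 CPM at the ends, and Bach2 at 2997 CPM against 2856 and 1723 CPM. Vpreb3 was highest in the members with 10 or more, at 3283 CPM against 2032 and 2409 CPM. Cd74 reached 1152 CPM (1124 to 1180) in those members, well short of the 8231 CPM of kappa cells with Ms4a1 of the same coverage. Cells with 3 or more G2/M UMIs made up 46.5% of heavy-chain-only cells, 34.2%, 31.0% and 21.3% of the members, and 12.7% of kappa cells with Ms4a1.

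**Figure D4:**
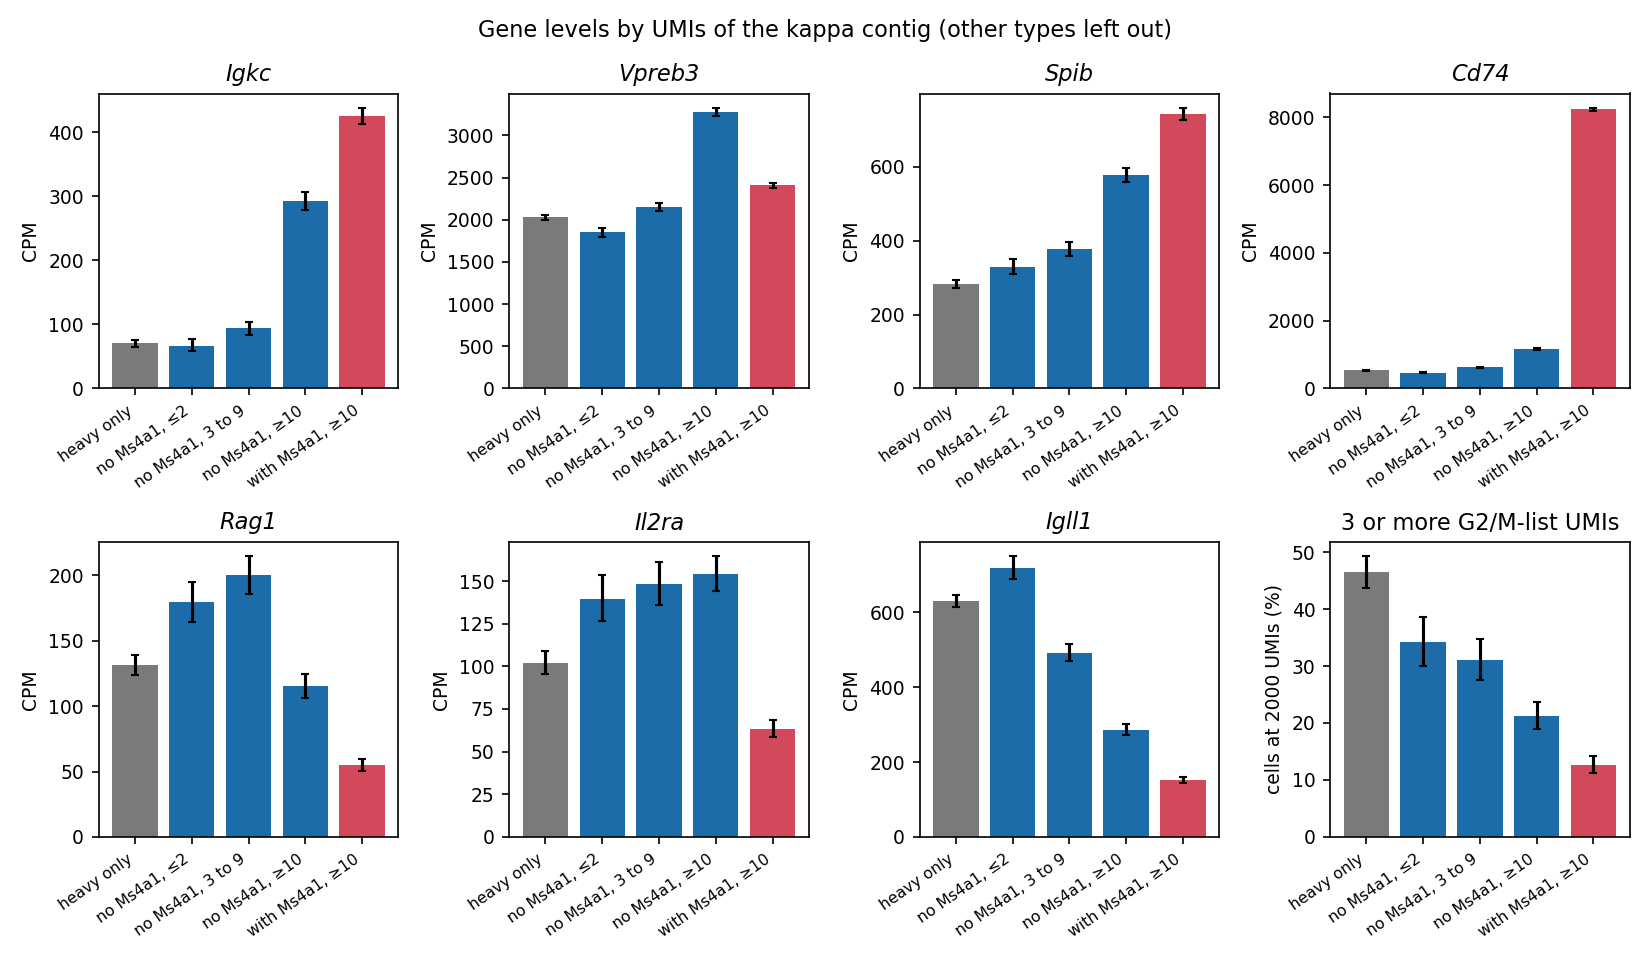
CPM of 7 genes and the share of cells (%) with 3 or more G2/M UMIs in heavy-chain-only cells without Ms4a1 (grey), members with 2 or fewer, 3 to 9 and 10 or more kappa contig UMIs (blue) and kappa cells with Ms4a1 and 10 or more (red), other types' cells left out; bars are sums over cells with 95% counting intervals. Igkc and Spib are higher and Igll1 lower in members with more kappa UMIs, and Cd74 is at 1152 CPM in the third blue bar against 8231 CPM in the red one.

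Lambda cells, which the rule left out, gave a like picture when divided by Ms4a1. Ms4a1 is the gene the rule used, so these values too describe the cells and support nothing further. The 534 lambda cells without Ms4a1 had Rag1 at 181 CPM (165 to 199), Il2ra at 168 CPM and Cd74 at 659 CPM. The 577 with Ms4a1 had 104 CPM, 90.3 CPM and 4411 CPM. Over all lambda cells, 49.1% (46.3 to 52.0) had no Ms4a1, next to 51.2% of kappa cells. Members against all lambda cells differed past 2-fold in 149 of 8554 genes (1.74%), of which 96 (1.12%) were higher in the members and 53 (0.62%) lower. Without other types' cells 110 of 8068 genes (1.36%) did, 56 (0.694%) higher and 54 (0.669%) lower. Of the list genes, Igkc was higher (1.07), and Ltb (-1.87), Fcmr (-1.50), Cd74 (-1.58) and H2-DMb2 (-2.22) were lower. All lambda cells include those with Ms4a1, whereas the members do not. Against lambda cells without Ms4a1 the members' Cd74 was instead higher, at 828 CPM against 659 CPM, as was H2-Aa, at 193 CPM against 141 CPM, while Fcmr was at 68.3 CPM against 83.2 CPM and Ltb at 26.9 CPM against 53.6 CPM. Over all cells Rag1 had a ratio of 0.07 (-0.05 to 0.20) and Rag2 of 0.33 (0.14 to 0.52).

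Clustering the members gave 10 groups, numbered from 0 by size. Genes of a cluster describe it and are no test. Cluster 0 held 1251 cells (42.2%) with a median of 15 kappa UMIs, and 63.7% of them had 10 or more. It was led by Prg3, Dnajc7, Vpreb3 and Dtx1, no gene of the marker lists was raised in it, and it stays unnamed. Its cells had Rag1 at 196 CPM, Il2ra at 212 CPM and Igll1 at 89.2 CPM, and 7.43% had 3 or more G2/M UMIs. Cluster 1, small pre-B-like by 4 of 8 markers (Rag1, Rag2, Il2ra and Sox4), held 460 cells (15.5%) with Rag1 at 414 CPM and a median of 4 kappa UMIs. Its 151 kappa contigs of 10 or more UMIs used IGKJ1 in 19.2% (13.3 to 26.4) and IGKJ5 in 36.4% (28.8 to 44.6), against 29.7% (26.7 to 32.9) and 25.4% (22.5 to 28.5) of 858 in cluster 0. IGKJ5 made up 19.7% (14.1 to 26.3) of 178 such contigs in cluster 3 and 34.5% (22.2 to 48.6) of 55 in cluster 4. In cluster 7 it made up 28.4% (18.5 to 40.1) of 74. IGKJ1 made up 27.5%, 29.1% and 23.0% in these 3 clusters. Whether cluster 1 stood apart in J use was not tested.

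Cluster 2, with 322 cells (10.9%), had 5 of 9 immature B markers and 3 of 8 small pre-B markers raised and is called by its number. Its Rag1 and Il2ra levels were 408 and 418 CPM. The J use of cluster 1, whose Rag1 level was close to this, was not seen here: the 62 kappa contigs of 10 or more UMIs in cluster 2 used IGKJ1 in 29.0% (18.2 to 41.9) and IGKJ5 in 19.4% (10.4 to 31.4). Its Ebf1 and Bach2 levels, 10533 and 11477 CPM, were several times those of cluster 0, at 2545 and 3197 CPM. These cells also had 3.66% ribosomal-protein UMIs, against 16.5% in cluster 0, and Malat1, a nuclear RNA, at 17562 CPM against 10023 CPM, with 1.48% mitochondrial UMIs. The part of RNA quality in this cluster was not tested. Cluster 7, with 103 cells, had levels like those of cluster 0 for Rag1 (207 CPM) and Igkc (315 CPM) and was led by the interferon-response genes Ifi27l2a and Ifi203.

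Most Mki67 UMIs of the members came from 3 clusters, with 38.8%, 26.1% and 18.0% from clusters 3, 5 and 6, and another 7.94% came from cluster 4. Cluster 3, large pre-B-like by 6 of 8 markers, held 288 cells with a median of 7851 UMIs, 96.2% of them with 3 or more G2/M UMIs. The 6 markers were the cell-cycle genes Mki67, Top2a, Ccnb2, Birc5, Pcna and Mcm5, and Vpreb1 and Igll1 were not among them. Its cells had a median of 11.5 kappa UMIs, and 60.8% had 10 or more. Cluster 5 held 136 cells, 98.5% of them with 3 or more G2/M UMIs, with 2.96% ribosomal-protein UMIs and a median of 2 kappa UMIs. Its 3 raised large pre-B markers were Mki67, Top2a and Mcm5. Cluster 6 held 134 cells with a median of 14554.5 UMIs, 51.9% with 3 or more G2/M UMIs, Igll1 at 1609 CPM and Myc at 365 CPM, and a median of 3 kappa UMIs. Rag1 was at 31.8, 70.1 and 46.5 CPM in clusters 3, 5 and 6.

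The last 3 clusters went against the label of the cells. Cluster 8, with 89 cells and a median of 15533 UMIs, had all 6 plasma cell markers and 7 of 10 granulocyte or monocyte markers raised, the latter being S100a8, S100a9, Ngp, Camp, Ltf, Lyz2 and Ly6c2. Of the members' UMIs of these 7 genes, a single cell held 24.4%, 24.3%, 22.6%, 26.2%, 30.4%, 18.0% and 4.42%, in that order. In cluster 8, 68 cells had a kappa contig of 500 or more UMIs, all with plasma cell transcripts. Whether the same cells of cluster 8 carried both sets of markers was not tested. Its Jchain level was 39421 CPM, its Igkc level 11055 CPM and its median kappa contig 5126 UMIs, and 83.1% of its cells had an IGHA heavy chain, while Rag1 was at 12.4 CPM. Cluster 4, with 142 cells, was led by Mpo, Prtn3, Elane and Siglech, genes of granulocyte precursors and plasmacytoid dendritic cells, and 40.1% of its cells reached the doublet score of 0.25. Cluster 9, NK or T-like by 11 of 11 markers, held 40 cells, 52.5% of which reached that score. Together with cluster 8 these were the cells in which other types' markers concentrated, at 68.3%, 87.5% and 98.9% of clusters 4, 9 and 8, and at no more than 1.09% of any other cluster.

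**Figure D5:**
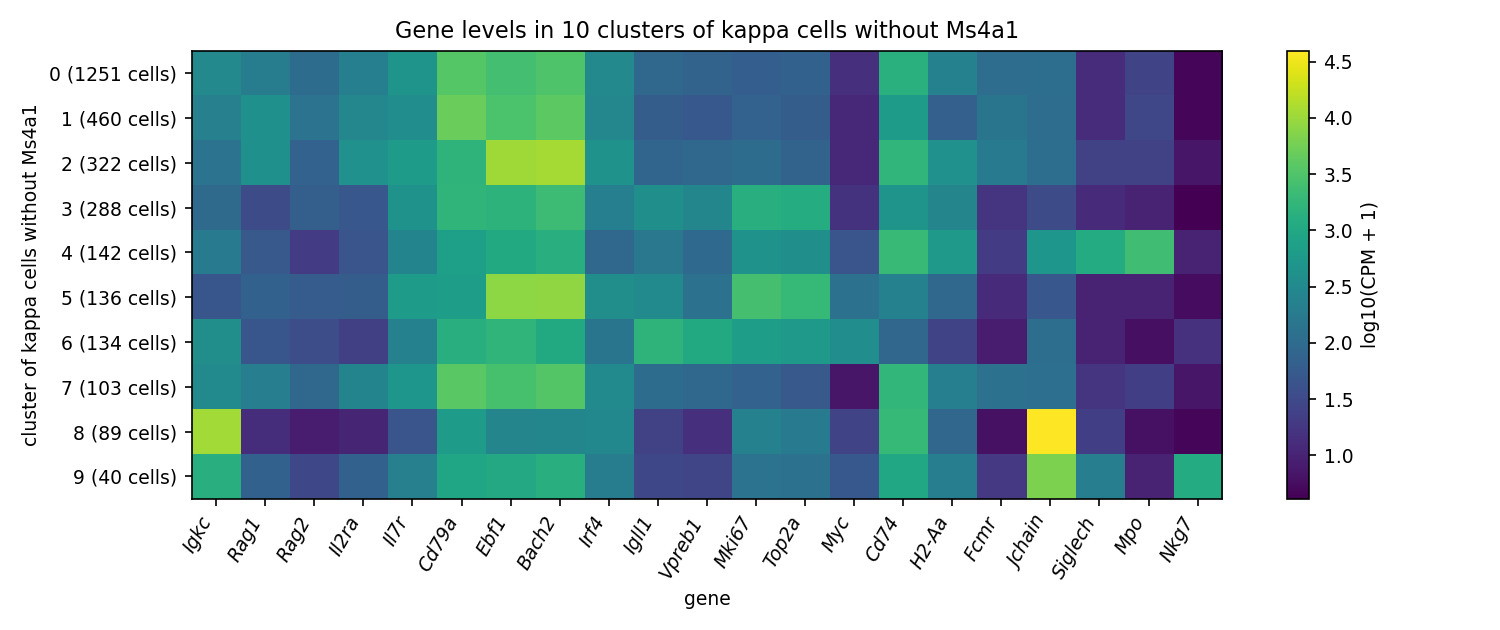
Colour gives log10(CPM + 1) of 21 genes (columns) summed over the cells of each of 10 clusters of the members (rows, with cell numbers). Rag1 and Il2ra are highest in clusters 1 and 2, Mki67 and Top2a in clusters 3, 5 and 6, Igkc and Jchain in cluster 8, Siglech and Mpo in cluster 4 and Nkg7 in cluster 9.

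The label of a late pre-B to immature stage held for some clusters more clearly than for others. By the markers, which count as raised only relative to the other members, cluster 1 met its pre-B side, with 4 of 8 small pre-B and 1 of 9 immature B markers. Cluster 2 had markers of both sides, with 3 of 8 and 5 of 9, though the part of RNA quality there was not tested. Clusters 0 and 7 had 0 of 8 small pre-B markers and no more than 1 of 9 immature B markers raised, at Rag1 levels of 196 and 207 CPM. Their Il2ra levels were 212 and 260 CPM. With other types' cells left out, Rag1 and Il2ra stood at 132 and 102 CPM in heavy-chain-only cells without Ms4a1. In kappa cells with Ms4a1 and 10 or more kappa UMIs they stood at 55.0 and 63.5 CPM. Clusters 3, 5 and 6 had 6, 3 and 5 of 8 large pre-B markers raised. In clusters 3 and 5 these were cell-cycle genes only. Vpreb1 and Igll1 did not count as raised there but were not absent. Igll1 stood at 399 and 325 CPM in these clusters, against 89.2 CPM in cluster 0 and 1609 CPM in cluster 6. Vpreb1 stood at 278 and 130 CPM, against 74.3 and 1075 CPM. Clusters 4, 8 and 9 carried genes of other cell types.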

How the data were processed

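Droplet single-cell UMI count matrices and tables of assembled receptor contigs were deposited by the authors for each library, made with Cell Ranger 7.1.0 on mm10 per the submitters' processing notes, and both were used as deposited. Filters and receptor classes followed the rule given in the report. The members, gene lists and tests were chosen with earlier results of these data known. Counts were summed over cells and given as CPM, log2 ratios used a pseudocount of 1 CPM, and genes needed 100 UMIs in the higher group. With 1 library per group there was no test. Genes named in the text are members of the lists, the 10 with the highest and lowest ratio in each comparison (receptor segments, mitochondrial, ribosomal-protein, predicted and sex-linked genes left out), the 10 leading genes of a cluster, all J and constant segments and the 5 most used V genes. Malat1 and the V genes of the printed chains were named after their values were seen. Gene identities and J segments came from GENCODE M21, which matched 31462 of 32285 symbols. Thinning drew 2000 UMIs per cell without replacement, with a fixed seed. Cells with at least 5 UMIs and 0.3% of their UMIs from markers of another type were set aside in an alternative added after the data were seen, as was a limit of 10 UMIs on the kappa contig, alone and together with it. NK or T-like and plasmacytoid dendritic-like reference cells had no IGH, IGK or IGL contig and at least 5 UMIs of the markers of 1 of these types, not both. For the count of kappa contigs in such cells, only a heavy chain had to be absent. Members were clustered with the Leiden method (20 components, 1500 variable genes, resolution 0.5), and a cluster took a name from at least 3 raised markers. Tools were python 3.11.15, numpy 2.4.6, pandas 2.3.3, scipy 1.17.1, scanpy 1.11.5 and leidenalg 0.10.2. The scripts were tested on simulated data. The alternatives are in the closing section.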

Additional observations from a re-analysis of the deposited data

How the results depend on the processing

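Of 90 values under alternatives, 52 stayed within counting error or within 1.5 times for gene counts, 38 moved and 0 reversed. Only the 4 log2 ratios could count as reversed. Gene counts were judged by their total, so a turned balance of higher and lower genes could still count as having stayed. This happened against heavy-chain-only cells with 10 kappa UMIs required and other types' cells left out, at 257 genes. The 4 log2 ratios among these results kept their sign under every alternative run, although the Igkc ratio against kappa cells with Ms4a1, which is not among them, changed sign as described, and the balance of genes higher and lower than in heavy-chain-only cells turned under both alternatives that required 10 kappa UMIs. The values as reported were: share of kept cells 18.2%, Rag1 ratio 1.16, Il2ra ratio 0.97, Igkc ratio to heavy-chain-only cells 4.10, G2/M ratio -0.67, IGKJ1 share 23.6%, second kappa contig 11.2% and shared heavy chain 4.76%. Genes past 2-fold were 415 of 9777 (4.24%) against kappa cells with Ms4a1 and 212 of 9458 (2.24%) against heavy-chain-only cells.

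Ignoring contigs of fewer than 3 UMIs gave a share of 13.9%, G2/M -0.61, Igkc 4.48, second kappa contig 7.41% and shared heavy chain 2.38%. Of 9532 genes, 161 (1.69%) were then higher and 52 (0.546%) lower than in heavy-chain-only cells. Totals without immunoglobulin, ribosomal and mitochondrial genes gave G2/M -0.63. Thinning gave G2/M -0.83, Igkc 2.60, Il2ra 1.33 and Rag1 1.52. It left fewer genes to measure, with 121 of 6435 (1.88%) past 2-fold against heavy-chain-only cells. Against kappa cells with Ms4a1, 187 of 7401 (2.53%) were higher and 246 (3.32%) lower. A pseudocount of 10 CPM gave Igkc 3.94. Genes past 2-fold were then 220 of 9777 (2.25%) against kappa cells with Ms4a1 and 125 of 9458 (1.32%) against heavy-chain-only cells. The stricter cell filter gave Rag1 1.04. Leaving out cells with more than 1 heavy or 2 kappa contigs gave Il2ra 1.11, Rag1 1.41 and shared heavy chain 2.93%. Removing cells at the doublet score gave 198 of 9465 genes (2.09%) higher and 336 (3.55%) lower against kappa cells with Ms4a1. The reported counts were 106 (1.08%) and 309 (3.16%). The remaining settings were chosen after seeing the data. Leaving out other types' cells gave a share of 20.6%, G2/M -0.55, Igkc 1.26 and shared heavy chain 2.93%. Against heavy-chain-only cells, 88 of 9074 genes (0.970%) were then past 2-fold. Requiring 10 kappa UMIs gave a share of 8.75%, G2/M -0.83, Igkc 5.05, Rag1 0.89, IGKJ1 27.5%, second kappa contig 6.09% and shared heavy chain 3.92%. Against heavy-chain-only cells, 444 of 8716 genes (5.09%) were past 2-fold, 187 (2.15%) higher and 257 (2.95%) lower. The reported counts there were 204 (2.16%) and 8 (0.0846%). Against kappa cells with Ms4a1, 448 of 8875 (5.05%) were past it. Both together gave a share of 9.76%, G2/M -0.61, Igkc 1.98, Il2ra 1.27, IGKJ1 27.8%, second kappa contig 6.34% and shared heavy chain 2.01%. Against heavy-chain-only cells, 257 of 8211 genes (3.13%) were then past 2-fold, 97 (1.18%) higher and 160 (1.95%) lower. The cause was not tested.

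No paired analysis was possible because all cells compared come from 1 library. Depth limits the count of 0 Ms4a1 that defines the cells, and the few UMIs of many kappa contigs limit what their chains show.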
